A study of Homo sapiens with 12 samples.

Results

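The glial, stemness and mesenchymal markers described here are 10 genes (GFAP, VIM, NES, S100B, OLIG2, SOX2, SOX9, CHI3L1, KLF4 and FUT4) of the 58174 genes in the tables. They were chosen by name, as markers used to place glioblastoma cells along the astrocytic, stem-like and mesenchymal states. Messenger RNA was measured in U-87 MG (U87) and U-118 MG (U118), both human glioblastoma lines, each as sensitive cells and as cells resistant to temozolomide (TMZ), an alkylating drug used against glioma. Each of the 4 groups held 3 libraries, 12 in all. All cells started from a fraction sorted as negative for CD133 and CD15 and were cultured with serum and BMP2, a ligand that drives glial differentiation. The resistant cells were collected as aggregates that formed after prolonged exposure to 50 µM TMZ, and the study calls them aggregations and the sensitive cells controls. The sources used here give a general statement that experiments were repeated but do not say whether the 3 libraries of a group came from separate cultures, so the p-values measure only the spread between these libraries, which may be technical.

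In brain, GFAP, vimentin (VIM) and nestin (NES) are intermediate filament proteins whose balance shifts as neural progenitors become astrocytes, and S100B is a calcium-binding protein of mature astrocytes. SOX2 and OLIG2 are transcription factors of neural and glial progenitors, SOX9 acts in gliogenesis, and KLF4 is a zinc-finger factor known from reprogramming to pluripotency. CHI3L1 (YKL-40) is a secreted chitinase-like protein and a classical marker of mesenchymal glioblastoma. FUT4 is a fucosyltransferase that can build the CD15 (Lewis X) carbohydrate, and PROM1 encodes the CD133 antigen.

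The libraries were checked against their line labels before any comparison. Over 16382 genes, Spearman's rho within a group was 0.960 to 0.988. The libraries labelled U118 resistant reached 0.808 to 0.839 against U118 sensitive, 0.895 to 0.909 against U87 sensitive and 0.907 to 0.913 against U87 resistant libraries. Of 46 genes at 20 TPM or more in all U118 sensitive libraries and under 0.1 TPM in all U87 sensitive libraries, 4 reached 1 TPM in all libraries labelled U118 resistant and 25 stayed under 0.1 TPM. Of 18 genes with the reverse pattern, 16 reached 1 TPM in all 3 of them. These libraries thus stood nearer to U87 than to the line they are labelled with. Every comparison of the U118 resistant group rests on that label because the group holds no other library. The U87 comparison does not use them, and that between the sensitive groups uses them only for the filter and spread of its fit. The share of transcripts from the mitochondrial genome was higher in resistant than in sensitive U87 libraries (22.2 to 23.7% against 12.9 to 16.9%) and overlapped in U118 (13.2 to 29.9% against 7.42 to 19.7%). Replicate 1 of the libraries labelled U118 resistant stood apart from the other two, with 15193 genes at 1 TPM or more against 13270 and 13545. Without mitochondrially encoded genes, and without this library, SOX9, KLF4 and FUT4 were still called lower in U118.

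In U87, none of the 7 members that could be tested passed both limits of the call, an adjusted p under 0.05 and a log2 change of at least 1 in size (limma). By comparison, 10.8% of the 13845 genes tested were called, 3.03% higher and 7.79% lower. At an unadjusted p under 0.05, 5 of the 7 passed, against 48.5% of all genes. At an adjusted p under 0.05 with any fold, SOX9 and NES were higher in resistant libraries and CHI3L1 was lower, against 9.43% and 29.7% of all genes. In U118, 3 of 6 tested members fell (SOX9, KLF4 and FUT4) and none rose, although NES and CHI3L1 were called higher with median-ratio scaling (1.44 and 1.18) and without mitochondrially encoded genes (1.18 and 1.02). FUT4 passed the filter only through the sensitive libraries, which fixed its direction. Of the members that did not pass, OLIG2 was higher and SOX2 lower in every U118 resistant library. Of all genes the shares were 26.6% of 15527 tested called lower and 8.64% called higher. At an unadjusted p under 0.05, NES and CHI3L1 were higher as well, against 58.1% of all genes past that limit in either direction. Counting all 10 members by library values, the resistant libraries lay wholly above the sensitive ones for 3 members in U87 (VIM, NES and SOX9) and 3 in U118 (NES, OLIG2 and CHI3L1), against 13.6% and 15.7% of genes tested. They lay wholly below for 2 in U87 (CHI3L1 and KLF4) and 4 in U118 (SOX2, SOX9, KLF4 and FUT4), against 39.8% and 42.9%. These shares cover only genes past the filter, which OLIG2 and SOX2 did not pass in U118. Changes are given as log2(TPM + 1), where the added 1 TPM shrinks those of weakly expressed genes. The genes tested had a median of -0.245 in U87 and -0.522 in U118, and the tested members one of 0.17 and -0.79. Median-ratio scaling moved the all-gene medians to 0 and -0.06 and the share of calls that were higher to 56.6% in U87 (28% before) and 51.7% in U118 (24.5% before). Relative to the all-gene median, SOX9, KLF4 and FUT4 in U118 stood at -1.41, -1.28 and -0.87, and all 3 stayed called under that scaling.

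**Figure D1:**
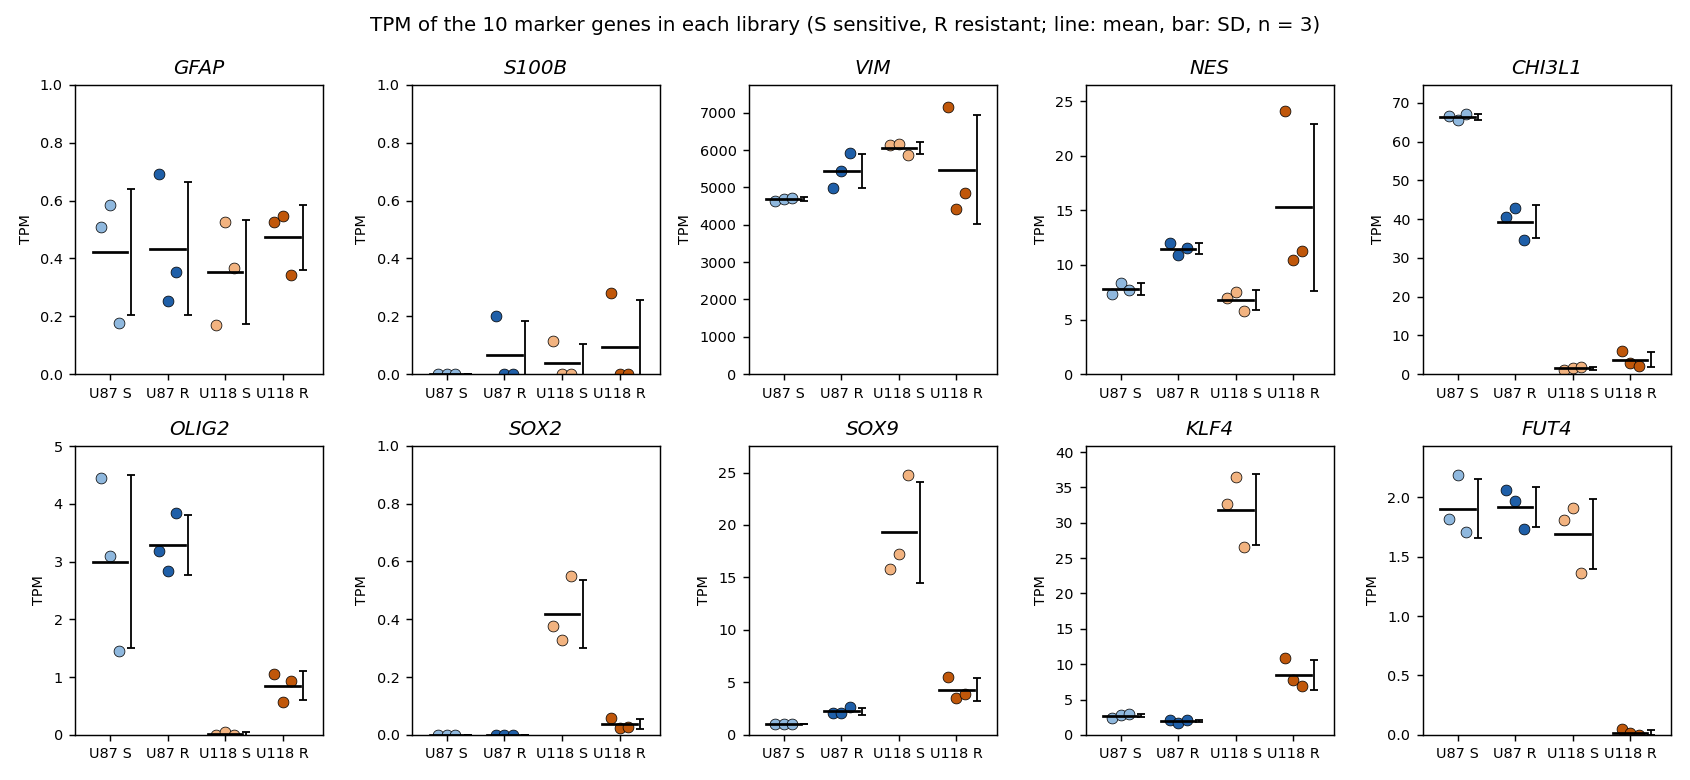
Level of each of the 10 marker genes in the 12 libraries, in TPM on a separate linear axis for each gene, with points for libraries and a line with bar for the group mean and SD (n = 3). SOX9 and KLF4 are highest in the U118 sensitive libraries (means of 19.3 and 31.9 TPM), CHI3L1 is highest in U87 (66.4 TPM in sensitive libraries), and FUT4 is near 0 only in the libraries labelled U118 resistant.

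The intermediate filament genes spanned the whole range of abundance. VIM (chr10:17228259-17237593, plus strand, GRCh38) ranked between place 8 and place 24 of all genes by TPM in every library. It stood at 4641, 4700 and 4726 TPM in U87 sensitive libraries and at 4997, 5445 and 5910 TPM in U87 resistant libraries. The U87 groups did not overlap, yet the difference was small (log2 change 0.21, SE 0.07) and missed the threshold (adjusted p = 0.0522, limma). In U118 the sensitive libraries held 6148, 6157 and 5863 TPM and the resistant libraries 7149, 4425 and 4855 TPM. Here the resistant libraries lay on both sides of the sensitive ones, and the log2 change was -0.18 (SE 0.29, adjusted p = 0.622), with a sign that turned under median-ratio scaling (0.34). The gene overlaps VIM-AS1 on the opposite strand (3.51 to 94.8 TPM), and because the sources used here do not state whether strand was counted, reads of the pair cannot be told apart.

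NES (chr1:156668763-156677397, minus strand), the progenitor filament, was higher in every resistant library of both lines. In U87 it measured 7.30, 8.34 and 7.70 TPM in sensitive and 12.003, 10.95 and 11.5 TPM in resistant libraries. The 2 sets were well separated, with a log2 change of 0.51 (SE 0.12, adjusted p = 0.017) that stayed under the fold limit. The adjusted p rose to 0.0599 to 0.067 without sensitive replicate 3, resistant replicate 1 or resistant replicate 3. In such bulk libraries a change in the number of expressing cells and one in RNA per cell cannot be told apart. In U118 the sensitive libraries held 6.95, 7.57 and 5.76 TPM and the resistant libraries 24.1, 10.4 and 11.3 TPM. Again the groups did not overlap, but replicate 1 of the resistant libraries stood far above the others (15.3 ± 7.64 TPM, SD, n = 3). The log2 change of 0.98 (SE 0.33, adjusted p = 0.0324) fell just under the fold limit, and without that library it was 0.62 (adjusted p = 0.0157). Without any 1 of the sensitive libraries, or without the low-value filter, the adjusted p was 0.0664 to 0.109. The change of NES did not differ detectably between the lines (difference 0.47, adjusted p = 0.342).

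GFAP (chr17:44903161-44916937, minus strand), the filament of differentiated astrocytes, was low in all 12 libraries, between 0.168 and 0.693 TPM. The group means were 0.422 ± 0.217 TPM in U87 sensitive, 0.433 ± 0.230 in U87 resistant, 0.353 ± 0.179 in U118 sensitive and 0.473 ± 0.112 in U118 resistant libraries (SD, n = 3). All 4 groups overlapped and the gene passed the filter of 1 TPM in 3 libraries in neither line. It also overlaps CCDC103 (2.16 to 8.37 TPM) on the opposite strand. S100B (chr21:46598962-46605208, minus strand) was listed at 0 in 9 of the libraries and read 0.200 TPM in U87 resistant replicate 1, 0.113 TPM in U118 sensitive replicate 1 and 0.281 TPM in U118 resistant replicate 1. Both astrocytic markers were therefore under the filter limit of 1 TPM in every library, and since TPM keeps no depth, no floor could be set for them.

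Of 16 other intermediate filament genes, 9 were tested in U87, where DES, the desmin of muscle, rose (log2 change 1.13) and 2 fell, KRT80 the most (-2.84). DES passed the filter only through the resistant libraries, which fixed its direction. In U118, 10 were tested, of which 2 rose and 4 fell (3 and 2 with median-ratio scaling). KRT80, an epithelial keratin, rose there (2.60), and SYNM, the synemin that copolymerises with vimentin, fell (-3.21). SYNM passed the filter only through the sensitive libraries. The list's median was -0.36 in U87 and -0.86 in U118. The S100 family held 15 genes. In U87, 8 were tested and S100A2 fell (-1.55). In U118, 9 were tested, S100A3 rose (2.16) and S100A4, a gene tied to mesenchymal motility, fell (-4.90).

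Other astrocyte genes were measurable and did not move as one. Of 18 markers, 11 were tested in U87, where GJA1 and ALDOC rose and ALDH1L1 and NDRG2 fell. ALDOC, the brain aldolase, rose by a log2 change of 1.10, and ALDH1L1, a folate enzyme used as an astrocyte marker, fell by 2.14 on the log2 scale. In U118, 8 were tested, 3 rose and NDRG2 fell (-1.92). GLUL, glutamine synthetase, stood at 4.46, 6.88 and 3.09 TPM in the U118 sensitive and 37.7, 56.8 and 70.0 TPM in the U118 resistant libraries (log2 change 3.27), while the U87 libraries held 46.1 to 126 TPM. The list's median change was 0.10 in U87 and 0.58 in U118.

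SOX9 and SOX2 had their highest levels in the U118 sensitive libraries. SOX9 (chr17:72121020-72126420, plus strand) stood at 1.00, 1.04 and 1.01 TPM in U87 sensitive libraries and at 2.08, 2.05 and 2.62 TPM in U87 resistant libraries. Each resistant library was above each sensitive one, with a log2 change of 0.68 (SE 0.13, adjusted p = 0.00732), under the fold limit. In U118 the order was the reverse, with 15.8, 17.2 and 24.8 TPM in sensitive and 5.53, 3.48 and 3.90 TPM in resistant libraries. SOX9 fell there by 1.93 on the log2 scale (SE 0.27, adjusted p = 0.000444), from a mean of 19.3 ± 4.83 to 4.30 ± 1.08 TPM (SD, n = 3). The difference between the lines' changes was -2.61 (SE 0.30, adjusted p = 2.05e-05). Sensitive U118 libraries exceeded sensitive U87 libraries by 3.30 (adjusted p = 5.17e-08), whereas the resistant libraries of the lines differed by 0.69 (adjusted p = 0.0269), under the fold limit.

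SOX2 (chr3:181711924-181714436, plus strand) was listed at 0 in all 6 U87 libraries. It read 0.376, 0.328 and 0.550 TPM in U118 sensitive libraries and 0.0590, 0.0253 and 0.0279 TPM in U118 resistant libraries. The U118 groups did not overlap, but no library reached 1 TPM and the gene was not tested. It lies within SOX2-OT on the same strand, which stood at 0 to 0.284 TPM. Of 15 other SOX genes, 3 were tested in U87 and SOX12 fell (-1.20), a call lost with median-ratio scaling (-0.95). In U118, 6 were tested, 2 rose, SOX13 the most (1.95), and 3 fell, among them SOX5 (-2.96), from 8.13 to 8.82 TPM down to 0.145 to 0.369 TPM. SOX13 passed the filter only through the resistant libraries and SOX5 only through the sensitive ones. SOX5 was listed at 0 in all 6 U87 libraries.

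OLIG2 (chr21:33025845-33029196, plus strand), the oligodendrocyte lineage factor, had its higher levels in U87. The U87 sensitive libraries held 4.45, 3.09 and 1.45 TPM and the U87 resistant libraries 3.18, 2.83 and 3.85 TPM. The groups overlapped, and replicate 3 of the sensitive libraries lay lowest (log2 change 0.17, SE 0.30, adjusted p = 0.686). In U118 the sensitive libraries read 0, 0.0524 and 0 TPM and the resistant ones 1.053, 0.570 and 0.934 TPM. These groups did not overlap, but the gene did not pass the filter within U118. In the fit over 12 libraries OLIG2 was lower in U118 than in U87 in sensitive (log2 difference -1.90, adjusted p = 3.18e-05) and in resistant libraries (-1.21, adjusted p = 0.00259), and the change did not differ detectably between the lines (0.69, adjusted p = 0.138), though the difference was 2.76 (adjusted p = 0.00216) with a pseudocount of 0.1 and 1.002 (adjusted p = 0.012) without U87 sensitive replicate 3.

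Other oligodendrocyte lineage genes gave 2 of 16 tested in U87 with none called (1 at an unadjusted p under 0.05), and 5 of 16 tested in U118, where PDGFRA and NKX2-2 were among the genes that fell. PDGFRA, the receptor of oligodendrocyte progenitors, stood at 88.3, 71.8 and 82.9 TPM in U118 sensitive and at 0.0875, 0.105 and 0.0716 TPM in U118 resistant libraries (log2 change -6.23). PDGFRA and NKX2-2 passed the filter only through the U118 sensitive libraries. PDGFRA was at 0 to 0.311 TPM in U87. In the libraries labelled U118 resistant OLIG2 was thus higher and PDGFRA lower than in sensitive ones, and for both genes these libraries were nearer in TPM to U87 than the U118 sensitive ones were.

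KLF4 (chr9:107484852-107490482, minus strand) was likewise far higher in U118 than in U87. U87 sensitive libraries held 2.42, 2.86 and 2.90 TPM and U87 resistant libraries 2.11, 1.74 and 2.04 TPM. Every resistant library was lower, but the log2 change of -0.33 (SE 0.14, adjusted p = 0.103) missed the threshold. In U118 the values were 32.6, 36.4 and 26.6 TPM in sensitive and 10.9, 7.76 and 6.88 TPM in resistant libraries. KLF4 fell there by 1.80 on the log2 scale (SE 0.25, adjusted p = 0.000423), more than in U87 (difference -1.47, adjusted p = 0.0013). U118 stayed above U87 in both states, by 3.13 in sensitive (adjusted p = 5.06e-08) and 1.66 in resistant libraries (adjusted p = 5.72e-05). Of 14 other KLF genes, 9 were tested in U87 with none called (5 at an unadjusted p under 0.05). In U118, 12 were tested, KLF5 rose (1.36) and 4 fell, KLF17 the most (-1.71). KLF17 passed the filter only through the sensitive libraries. With median-ratio scaling 1 of the 12 rose and 1 fell.

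FUT4 (chr11:94543840-94549898, plus strand) was at about the same level in 3 of the 4 groups. It read 1.82, 2.19 and 1.71 TPM in U87 sensitive, 2.06, 1.96 and 1.73 TPM in U87 resistant and 1.81, 1.91 and 1.36 TPM in U118 sensitive libraries. These 9 values overlapped between the groups, and the U87 states differed by 0.01 on the log2 scale (SE 0.14, adjusted p = 0.966). In the libraries labelled U118 resistant it read 0.0463, 0.0126 and 0 TPM. FUT4 fell there by 1.40 on the log2 scale (SE 0.16, adjusted p = 0.000149), a change bounded by the low starting level, and it had passed the filter only through the sensitive libraries. The change differed from that in U87 (-1.40, adjusted p = 0.000104), and resistant U118 libraries were below resistant U87 libraries (-1.52, adjusted p = 5.16e-06).

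Promoter sequence is shown for the 3 members past an adjusted p under 0.05 in either line for which RefSeq (GRCh38.p14) gave a window upstream of the annotated starts. Of the 10 members 6 had an entry. The runs are written 5′ to 3′ on the gene's strand, at chr11:94543671-94543839 (plus) for FUT4, chr1:203186750-203186954 (minus) for CHI3L1 and chr1:156677408-156677657 (minus) for NES. Capitals mark the core of the hypoxia response element, searched as ACGTG and GCGTG on both strands with overlapping matches allowed. The matches here read as their reverse complements.
FUT4: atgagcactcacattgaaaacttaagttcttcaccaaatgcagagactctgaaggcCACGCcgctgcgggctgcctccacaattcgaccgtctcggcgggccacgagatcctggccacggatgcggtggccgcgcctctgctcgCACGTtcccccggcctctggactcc
CHI3L1: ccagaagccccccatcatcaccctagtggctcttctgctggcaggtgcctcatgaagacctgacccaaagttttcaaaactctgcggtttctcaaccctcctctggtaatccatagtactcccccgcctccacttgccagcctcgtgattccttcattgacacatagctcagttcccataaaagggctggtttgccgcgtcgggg
NES: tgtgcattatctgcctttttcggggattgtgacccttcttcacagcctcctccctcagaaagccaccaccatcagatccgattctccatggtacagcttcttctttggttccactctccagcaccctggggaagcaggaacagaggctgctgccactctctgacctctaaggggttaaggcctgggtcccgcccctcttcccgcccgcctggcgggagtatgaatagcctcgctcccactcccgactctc
FUT4 held 2 matches in 169 bases, where 30.5% of 35116 promoters held at least 1 in the same length. CHI3L1 held none in 205 bases and NES none in 250 bases, against 36.7% and 43.2% of promoters. These matches are letters in a window only.

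For FUT4 the libraries labelled U118 resistant were thus not near U87. Few genes at high levels in U87 were near 0 there. Of 4250 genes at 20 TPM or more in all 6 U87 libraries, 2 were under 0.1 TPM in all libraries labelled U118 resistant. FUT4 stood at 1.71 to 2.19 TPM in U87, under that limit, and the share of genes near 0 was not counted at its level. Of list genes at low levels, ID4 stood at 0.986 to 1.82 TPM in U87 and at 0 in all U118 resistant libraries. NDRG2 stood at 2.38 to 7.20 TPM in U87 and at 0.0648 to 0.175 TPM in U118 resistant libraries. The count also leaves out other large departures from U87. APOE of the astrocyte list was at 192 to 228 TPM in U87. It stood at 0.404 to 1.19 TPM in U118 sensitive and 0.509 to 0.721 TPM in U118 resistant libraries. THY1 of the fibroblast list was 6.30 higher on the log2 scale in resistant U118 than in resistant U87 libraries. Among list genes at lower levels, ITGA6, an integrin used as a glioma stem marker, stood at 2.63 to 6.04 TPM in U87 and 28.6 to 40.7 TPM in U118 sensitive libraries and at 0.108, 0 and 0.00494 TPM in U118 resistant libraries (log2 change -5.04 in U118). The sort antigens gave no counterpart. PROM1 was between 0 and 0.0797 TPM in all 12 libraries, and FUT9, the main fucosyltransferase for CD15 in neural cells, was listed at 0 in all of them. The other 11 fucosyltransferase genes gave 5 tested in U87 with none called (3 at an unadjusted p under 0.05) and 5 in U118 with POFUT1 (-1.26), FUT10 and FUT11 lower, and with median-ratio scaling none of these was called in U118.

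Of 22 further neural and glioma stem markers, 9 were tested in U87 with none called (3 at an unadjusted p under 0.05, against 48.5% of all genes) and a median of -0.38. In U118, 8 were tested with a median of -0.24, none rose, and ITGA6 and ID4 fell. Both passed the filter only through the sensitive libraries, which fixed their direction.

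CHI3L1 (chr1:203178931-203186749, minus strand) had, on the log2(TPM + 1) scale, the widest gap between the sensitive lines of the 7 members tested and differed between states in opposite directions in them. U87 sensitive libraries held 66.5, 65.6 and 67.0 TPM and U87 resistant libraries 40.6, 42.7 and 34.5 TPM. The groups were far apart relative to their spread, and the log2 change of -0.75 (SE 0.10, adjusted p = 0.00152) was under the fold limit. In U118 the sensitive libraries held 1.14, 1.503 and 1.85 TPM and the resistant ones 5.88, 2.97 and 2.20 TPM. Each resistant library was above each sensitive one, with replicate 1 the highest (log2 change 0.84, SE 0.30, adjusted p = 0.0411), and without that library the change was 0.52 (adjusted p = 0.0447). Without any 1 of the sensitive libraries, or without the low-value filter, the adjusted p was 0.0852 to 0.15. The changes of the lines differed by 1.59 (SE 0.35, adjusted p = 0.00348). CHI3L1 was lower in U118 than in U87 (log2 difference -4.76 in sensitive and -3.18 in resistant libraries, adjusted p = 7.47e-09 and 1.45e-06). Its relative CHI3L2 rose in both lines, by 3.99 in U87, from 0.138 to 0.435 TPM up to 18.3 to 19.3 TPM, and by 1.03 in U118, where it was 0.82 and not called without resistant replicate 1.

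**Figure D2:**
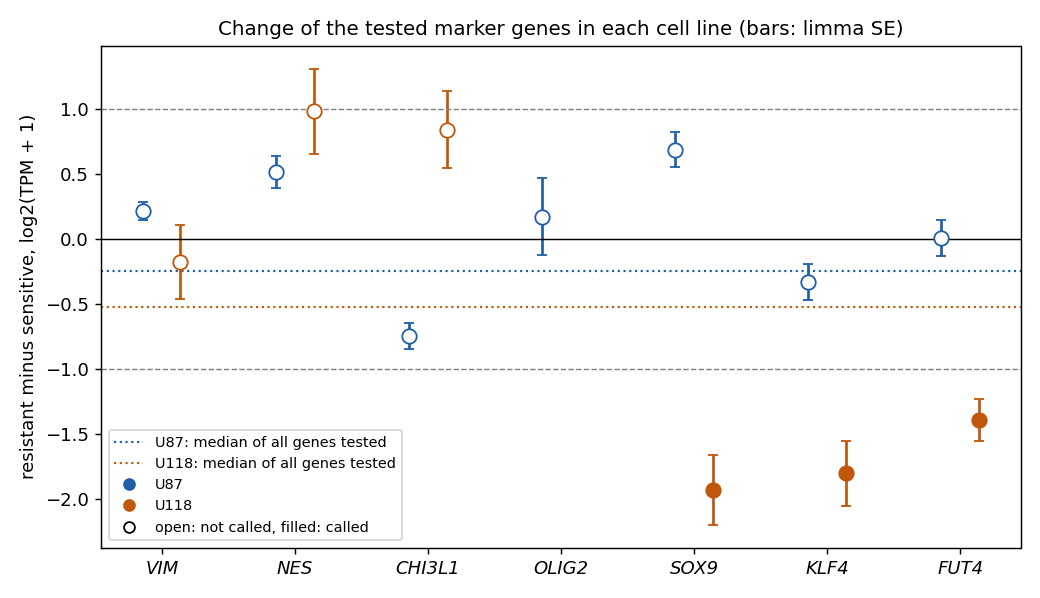
Log2 change of each tested member, resistant minus sensitive, on the log2(TPM + 1) scale in U87 and U118, with bars of 1 SE, dashed lines at the fold limit and dotted lines at each line's median of all genes. Filled points passed both limits of the call, and SOX9, KLF4 and FUT4 in U118 (-1.93, -1.80 and -1.40) are the filled points.

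The other mesenchymal glioma markers were abundant, all 28 at 1 TPM or more in every library, and their median change was 0.24 in U87 and -0.06 in U118, in both lines above the median of all genes. In U87, 4 rose and none fell, the risers being FN1, CEBPD, TIMP1 and LGALS3. In U118, 7 rose and 7 fell. FN1, the matrix protein fibronectin, went from 68.2 to 77.9 TPM up to 785 to 973 TPM in U87 (log2 change 3.58) and from 2754, 3309 and 3879 TPM down to 334, 78.4 and 83.8 TPM in U118 (-4.65). TGFBI, a matrix protein induced by TGF-beta, was highest among the U118 rises, from 29.8 to 32.1 TPM up to 343 to 1061 TPM (log2 change 4.0), where U87 libraries held 671 to 1308 TPM. In U118 the split was 10 higher and 5 lower with median-ratio scaling and 10 and 7 without mitochondrially encoded genes. In U87, 6 were higher with median-ratio scaling. CHI3L1, which was lower in U87 resistant libraries, passed an adjusted p under 0.05 (limma) but not the fold limit. At that p with any fold, 16 of the 28 list genes passed in U87. MET (-0.86), CASP1 (-0.73), YAP1 (-0.66) and TRADD (-0.47) were lower as well, and the others were higher. Of all genes 9.43% were higher and 29.7% lower at that limit.

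Fibroblast markers overlap in function with mesenchymal ones. In U87, 5 of 8 tested rose (8 with median-ratio scaling and 7 without mitochondrially encoded genes), POSTN the most (2.28), and in U118, 8 of 10 tested fell, POSTN again the most (-5.59). POSTN passed the filter only through the resistant libraries in U87 and only through the sensitive ones in U118, which fixed both directions. The summed level of all 11 was 254 to 265 TPM in U87 sensitive, 487 to 574 in U87 resistant, 1463 to 1789 in U118 sensitive and 341 to 738 TPM in U118 resistant libraries. Genes of the BMP response, which bear on the BMP2 in the medium, gave SMAD9 lower in U87 (-1.38, 11 of 14 tested). SMAD9 passed the filter only through the sensitive libraries. In U118, 10 were tested, 2 rose, the BMP antagonist GREM1 the most (3.99), and 4 fell, ATOH8 the most (-3.40). GREM1 passed the filter only through the resistant libraries.

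Markers of cell types that the lines should lack were low apart from a few genes. Of 11 microglia and leukocyte markers 3 were tested in each line. In U118 TMEM119 rose (4.46) along with CSF1R, while AIF1 was listed at 0 in all libraries and PTPRC stayed at or under 0.0689 TPM. The summed level of the list was 173 to 319 TPM in U118 sensitive and 356 to 425 TPM in U118 resistant libraries, most of it from CD68, a lysosomal protein, at 170 to 316 and 296 to 379 TPM and not called. Of 11 neuron markers GAP43 (3.42) and SYP rose in U118, both passing the filter only through all 3 resistant libraries, and the summed level was 58.5 to 100 TPM in sensitive and 82.3 to 136 TPM in resistant libraries. Of 8 endothelial markers, summing to under 6 TPM in every library, TEK rose (1.58) and KDR (-1.07) and ESAM fell in U118. TEK passed the filter only through the resistant libraries and KDR only through the sensitive ones. No fall was called with median-ratio scaling, where KDR no longer passed the filter. No gene of these 3 lists was called in U87, where 5 of the 8 tested passed an unadjusted p under 0.05, and 1 neuron and 1 microglia marker were called higher with median-ratio scaling and without mitochondrially encoded genes. Their part in the members' values was not tested.

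**Figure D3:**
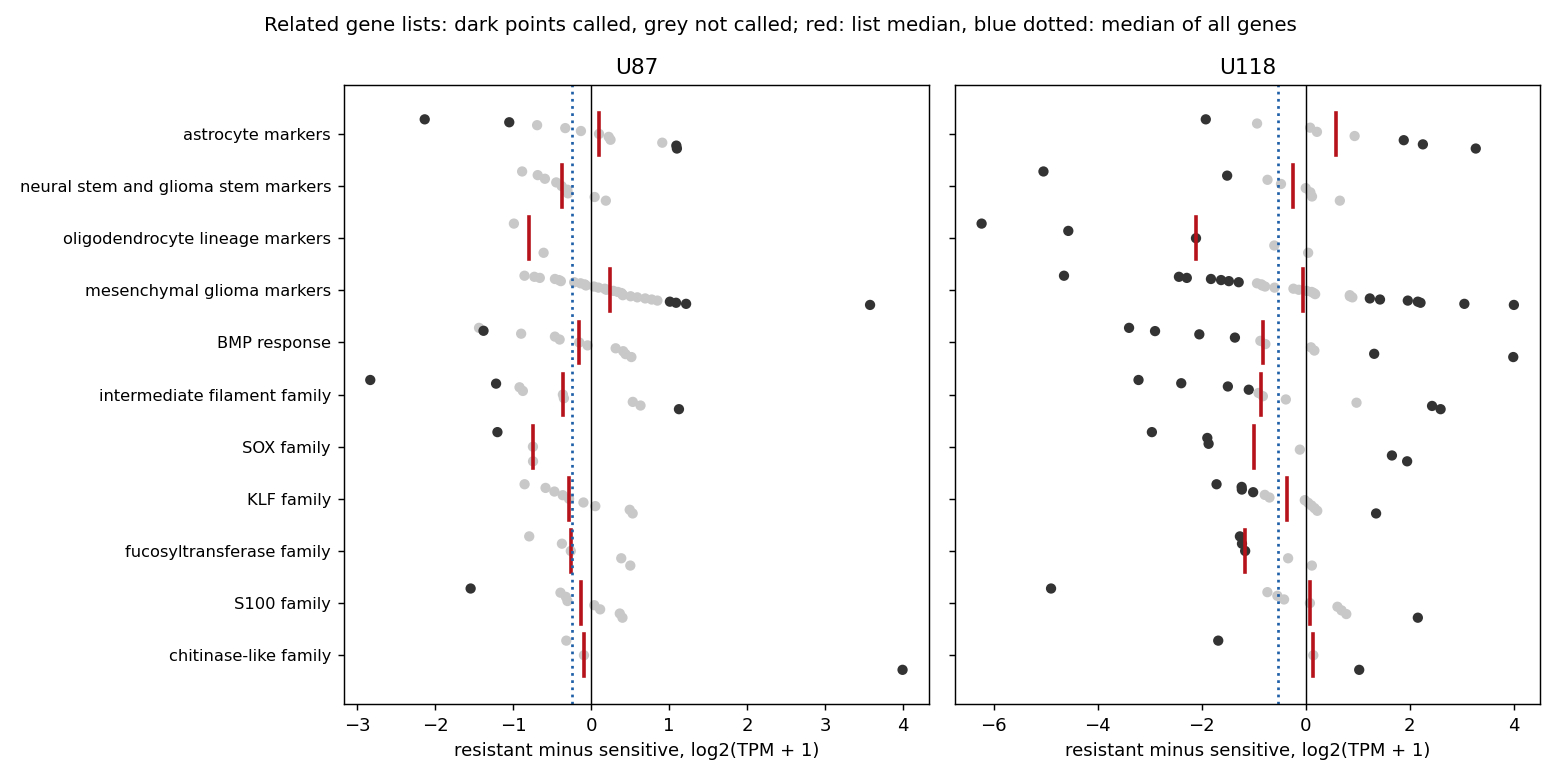
Log2 change of each tested gene of 11 related lists, resistant minus sensitive on the log2(TPM + 1) scale, in U87 (left) and U118 (right), with dark points for called genes, grey points for the others, red bars for list medians and a blue dotted line for the median of all genes. The mesenchymal list has 4 dark points on the right in U87 and 7 on each side in U118, and PDGFRA is the leftmost dark point of the oligodendrocyte list in U118 (-6.23).

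Set side by side, the group means of 6 members (VIM, OLIG2, SOX2, SOX9, CHI3L1 and KLF4) in the libraries labelled U118 resistant lay between those of U118 sensitive and U87 resistant libraries. GFAP, NES, S100B and FUT4 lay outside that range. The share of all genes lying between was not counted, so nothing particular to the members is read from this. For VIM the place rested on means of 5476 against 5451 TPM, with U118 resistant libraries from 4425 to 7149 TPM. OLIG2 and SOX2 were not tested in U118. For SOX9 the order was U118 sensitive (19.3 TPM), U118 resistant (4.30), U87 resistant (2.25) and U87 sensitive (1.02), and for CHI3L1 it was the reverse (1.498, 3.68, 39.3 and 66.4 TPM). In both orders the sensitive groups were at the ends. For KLF4 the order was 31.9, 8.50, 2.73 and 1.96 TPM from U118 sensitive and U118 resistant to U87 sensitive and U87 resistant libraries, where the U87 neighbours did not differ past the threshold. Over the tested members, 4 changed differently between the lines, SOX9, KLF4 and FUT4 more negatively and CHI3L1 more positively in U118, against 18.5% of the 16382 genes tested called lower and 12% higher. Between sensitive libraries, SOX9 and KLF4 were called higher in U118 and OLIG2 and CHI3L1 lower (25.6% and 11% of all genes), and between resistant libraries KLF4 was called higher and OLIG2, CHI3L1 and FUT4 lower (8.79% and 5.59%).

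The genes whose levels followed each member most closely over the 12 libraries, by Pearson's r of log2(TPM + 1), were ZNF554 for VIM (0.965), HRNR for NES (0.955), LYN for OLIG2 (0.967), LTBP1 for SOX9 (0.993), SULT1A1 for CHI3L1 (0.995), C19orf44 for KLF4 (0.992) and FUCA2 for FUT4 (0.990). The libraries fall into 4 groups, so these values describe group patterns and carry no test. FUCA2, an alpha-L-fucosidase, was picked from all genes for its likeness alone.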

How the data were processed

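RNA of 12 libraries was sequenced by the authors, and the deposited tables hold TPM (length-scaled transcript levels that sum to the same total in each library) per gene and library. The submitters' processing notes name FastQC 0.11.2, Trimmomatic 0.36, HISAT2 2.0, bedtools 2.26.0 and GRCh38. The quantification tool, annotation release and strand setting are not given in the sources used here. TPM keeps no depth, so counting error could not be given. Of 58174 gene IDs, 57836 were in GENCODE 29, from which positions were taken. Symbols came from a separate list of gene names, which gave a symbol for 41805 of the IDs.

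Samples were grouped by their labels. TPM was tested as log2(TPM + 1) with limma 3.58.1 (R 4.3.3, empirical Bayes with trend) and Benjamini-Hochberg adjustment over every gene that reached 1 TPM in 3 or more libraries of its fit. U87 and U118 were fitted apart (6 libraries each), and 1 fit of all 12 gave the difference of the lines' changes and the differences between lines. A call needed an adjusted p under 0.05 and a log2 change of at least 1. A gene under 1 TPM in all libraries of a state passed its line's filter only through the other state, which fixed its direction. In U118, FUT4, ITGA6, ID4, PDGFRA, NKX2-2, SOX5, SOX13, NDRG2, SYNM, KLF17, GREM1 and POSTN were among such genes. In U87, CHI3L2, DES, SMAD9 and POSTN were among them. An exact permutation test of 3 against 3 cannot go below 0.1, so none is given. On simulated data 92.5% of 200 genes changed by 2 on the log2 scale were recovered among 13789 genes in U87, and 81% among 15078 genes in U118.

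The text names all 10 members, PROM1 and FUT9, the called gene with the largest rise and fall of each of 15 related lists in each line, and the gene most like each member. Other list genes (such as GJA1, CSF1R, SYP and TIMP1) were named after their values were seen. One result of the oligodendrocyte list is not reported here. Members and lists were chosen with earlier results of these data known. Alternatives changed the pseudocount, low-value filter, scaling, mitochondrial genes, fold limit, replicate block and each replicate.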

Additional observations from a re-analysis of the deposited data

Results flagged for a closer look

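Among the genes named by the rule, the changes between states differed between the lines for 4 members and 24 genes of the related lists, tested as the change in U118 minus the change in U87 (limma over 12 libraries, log2 scale, all called), and each value rests on the libraries labelled U118 resistant. Other genes of the lists were called too, and of all 16382 genes tested 12% were called higher and 18.5% lower.

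Among members, the difference was -2.61 for SOX9, -1.47 for KLF4, -1.40 for FUT4 and 1.59 for CHI3L1. For SOX9 and CHI3L1 the lines differed in direction, while for KLF4 both lines were lower in resistant libraries and for FUT4 only U118 was.

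Of astrocyte, stem and oligodendrocyte genes, ALDH1L1 gave 2.05, GLUL 3.97, ITGA6 -4.35 and PDGFRA -6.44. ALDH1L1 stood at 0.0228 to 0.135 TPM in the U118 libraries, so its value mirrors its change in U87 (-2.14). PDGFRA stood at 0 to 0.311 TPM in U87, so its value mirrors its change in U118 (-6.23). Mesenchymal and fibroblast genes gave 3.23 for TGFBI, -8.22 for FN1 and -7.87 for POSTN. The BMP response genes GREM1 and ATOH8 gave 3.55 and -3.35.

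In the members' own families, the filament genes DES, SYNM and KRT80 gave -1.29, -3.19 and 5.43. SOX5 gave -2.96 and SOX13 gave 2.70, KLF5 gave 1.75 and KLF17 gave -2.21. The S100 genes S100A2, S100A3 and S100A4 gave 1.13, 2.55 and -4.59, and the chitinase-like genes CHI3L2 and CTBS gave -2.96 and -1.59. Markers of other cell types gave 3.67 for GAP43, 3.61 for TMEM119 and 1.48 for TEK.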

How the results depend on the processing

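SOX9, KLF4 and FUT4 stayed called lower in U118 under every alternative in which they were tested, with log2 changes of -2.14 to -1.48, -1.97 to -1.32 and -3.91 to -1.23. FUT4 dropped below the filter when a U118 sensitive library was left out. In U87, 1 member was called higher with a pseudocount of 0.1 (SOX9), and without a fold limit 2 were higher and 1 lower. In U118, 2 members (NES and CHI3L1) were called higher with a pseudocount of 0.1, with median-ratio scaling, without mitochondrially encoded genes and without a fold limit, and 0 to 2 on leaving out single libraries. For the difference between the lines, 2 were higher with a pseudocount of 0.1, 1 to 2 on leaving out libraries (OLIG2 added without U87 sensitive replicate 3), and 1 lower with a mean of at least 10 TPM. That filter left 1 member higher and 1 lower between sensitive libraries and 1 lower between resistant libraries, because it removes low genes, and without a fold limit 2 were higher between resistant libraries.

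Signs turned for uncalled values only. VIM in U118 was 0.34 with median-ratio scaling and 0.02 (0.0215) without mitochondrially encoded genes. On leaving out libraries, the U87 changes ranged from -0.040 to 0.078 for FUT4 and from -0.15 to 0.43 for OLIG2, and the differences between resistant libraries from -0.23 to 0.12 for VIM and from -0.075 to 0.49 for NES. Among list genes, CHI3L2 and KLF5 in U118 lost their call without the filter and on leaving out libraries (CHI3L2 without sensitive replicate 2 or 3 or resistant replicate 1 or 3, KLF5 without sensitive replicate 1 or 2 or resistant replicate 3), POFUT1 under median-ratio scaling, and NDRG2 in U87 under that scaling, without mitochondrially encoded genes and without sensitive replicate 2 or 3.

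Same-numbered replicates of the 2 states did not deviate together in U87 (r of -0.067 to 0.011 across genes) and weakly in U118 (0.051 to 0.139, each library correlating best with its own number), so the numbers were not used as pairs. With the replicate block the members' calls were the same, the genes called numbered 414 higher and 1040 lower in U87 and 1363 and 4218 in U118. Between sensitive libraries they numbered 5642 higher and 1625 lower (4194 and 1794 without the block) and between resistant libraries 1952 and 707 (1440 and 915 without it). With the block, NES in U87 had an adjusted p of 0.0699 (limma). At replicate 1, NES between sensitive and VIM between resistant libraries stood at 0.21 and 0.27. Without replicate 1 of the libraries labelled U118 resistant, 767 genes were called higher and 5627 lower, against 1341 and 4134. The cause of this last shift was not tested. Without counts, the precision of low values such as those of GFAP, S100B and SOX2 is unknown.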
